A study of Arabidopsis thaliana with 11 samples.

Results

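Transcripts more maternal or more paternal than the genome dose were examined here gene by gene in dissected, wild-type "pure" endosperm of Arabidopsis thaliana, with the functions of the genes on each side. The 3 libraries of wild-type pure endosperm, of 11 in the series, were chosen by their titles. All were made from seeds 7 to 9 days after pollination, of crosses between the inbred ecotypes Columbia-0 (Col) and Landsberg (Ler). The mother is named before the father. The first library is a Col × Ler cross whose title carries "LCM", an abbreviation that the labels do not spell out. The others are a further Col × Ler cross and the reciprocal Ler × Col cross, and counts below follow that order. Comparison groups were wild-type "full" endosperm (1 library of each cross direction), whose difference in preparation the labels do not state, and wild-type embryo (2 Col × Ler libraries, 1 of them LCM-titled, and 1 Ler × Col). Endosperm of 1 dme mother, 1 fie mother and 1 met1 father entered the fit but is not described. The labels do not say that different plants gave each library, and p-values therefore cover only the spread among these libraries, which may be technical.

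Endosperm is the nutritive tissue of the flowering-plant seed. It carries 2 maternal genome doses and 1 paternal dose, so a gene read equally from every copy gives a maternal share of 66.7%. In genomic imprinting, a gene is expressed mainly from the allele of one parent; in Arabidopsis this is best known from the endosperm, where DNA demethylation by DEMETER and silencing by Polycomb proteins mark the parental alleles differently. The seed coat around the endosperm is maternal tissue and transmits no paternal allele, so its transcripts are read from the mother alone.

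Reads that could be assigned to an allele numbered 358142, 2700162 and 2840412 in the pure endosperm libraries, 4562509 and 4828301 in full endosperm, and between 607800 and 2446825 in embryo. Of all such reads in pure endosperm, 67.4%, 69.5% and 66.9% were maternal. The LCM-titled library stood apart in depth and in its seed coat markers. Summed over 10 marker genes, of which 7 were detected, seed coat markers reached 1284, 4905 and 2565 CPM (allele reads scaled by the library total) in the 3 pure libraries, 13751 and 9400.4 in full endosperm, and 1059.6 to 1308 in embryo. TT2, TT12 and MUM4 were at 0 in each of these libraries. The subtilase gene ARA12 gave the largest part of the embryo sums. It stood at 982, 695 and 648 CPM in the LCM-titled, the other Col × Ler and the Ler × Col embryo libraries. Its reads there were 52.3%, 58.3% and 55.3% maternal. The laccase gene TT10 stood at 4.94, 228 and 369 CPM in the same embryo libraries. The part of seed coat RNA in the embryo sums was not tested. Endosperm markers, of which 4 of 6 were detected, reached 17177, 87528.5 and 132646 CPM in pure endosperm and 70.7 to 9079 in embryo. In full endosperm this sum was 207603 and 144556. The extensin-like gene EPR1 gave most of it, at 11752, 86198 and 131002 in the pure libraries, and MINI3 and IKU2 were at 0. The other detected markers went the other way among the pure libraries, highest in the LCM-titled one. ALE1 stood at 4484, 1014 and 1261 CPM, ZOU at 558, 113 and 109, and SUC5 at 383, 203 and 274. Embryo markers reached 137, 322 and 217 CPM in pure endosperm and 1148 to 1413 in embryo. SCR and GSO2 gave most of these sums. In embryo SCR stood at 704, 422 and 405 CPM and GSO2 at 545, 713 and 666. LEC1 went the other way, at 36.3, 18.9 and 20.1 in pure endosperm and 24.7, 16.8 and 9.90 in embryo. WOX2 was at 0 in embryo and at 0, 1.85 and 0.70 in pure endosperm. CUC1, STM and PLT1 were at 0 in each pure library.

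Far more genes leaned to the mother than to the father. Of 7327 genes with at least 10 allele reads in each cross direction, 304 were called maternal and 46 paternal. The call needed an adjusted p under 0.05 in edgeR's quasi-likelihood test against the 2:1 dose, with the ecotype of the allele as a covariate. These are 4.15% and 0.628% of the genes tested. The median log2 bias (maternal over paternal reads, relative to 2:1) of all tested genes was 0.07. Each deeper library weighed on these counts. Without the unmarked Col × Ler library, 48 maternal and 15 paternal calls were made among 3666 genes that could be tested. Of these, 45 and 12 were also calls with all libraries. Without the Ler × Col library 178 and 40 were made, which kept 149 of the 304 maternal and 20 of the 46 paternal calls. DESeq2 gave 148 and 27. In both cross directions, 295 of the 304 maternal calls lay above 66.7% and 41 of the 46 paternal calls lay below it.

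**Figure D1:**
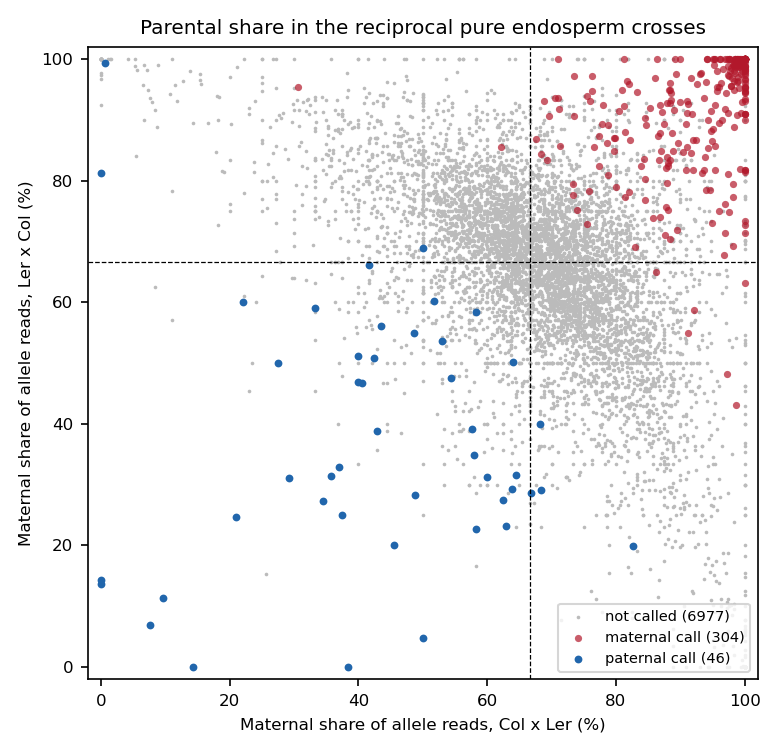
Maternal share of allele reads per gene in the Col × Ler library (x axis, %) and the Ler × Col library (y axis, %) of pure endosperm, without the LCM-titled library. Dashed lines mark the share of 66.7% that the genome dose gives. Most of the 304 maternal calls gather in the top right corner, and most of the 46 paternal calls spread over the lower left. Of the paternal calls, AT1G70600 and AT1G65760 lie at the upper left and AT3G11160 at the lower right.

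On the maternal side, 201 of 304 genes had a maternal share of at least 85% in both directions, and 136 had at least 95%. No paternal read was counted in any of the 3 libraries for 52 maternal calls, whose median total was 57.5 reads. Paternal calls were rarely exclusive. Each of the 46 had at least 1 maternal read, 17 had a maternal share under 50% in both directions, and for the other 29 the share was at or above 50% in at least 1 direction. Their median maternal share was 36.8%, 43.5% and 32.2% in the 3 libraries, over genes with at least 10 reads there.

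Maternal calls were sparsely read in the LCM-titled library. Only 80 of the 304 reached 10 reads there, and 85 had none, against 494 of all 7327 tested genes. In the 80, the median maternal share was 86.3%, against 97.3% and 95.5% over the calls with at least 10 reads in the Col × Ler and Ler × Col libraries. Levels (in CPM) were lower in the LCM-titled than in the other Col × Ler library for 84.2% of maternal calls, 50% of paternal calls and 44.7% of tested genes. In both crosses, the level was higher in full than in pure endosperm for 63.8% of maternal calls, 39.1% of paternal calls and 42.4% of tested genes. The summed seed coat markers were lower in the LCM-titled library than in the other pure libraries and highest in full endosperm, and their part in the maternal calls was not tested. TT10 was at 452, 2901 and 1489 CPM in pure and 10719 and 7559 in full endosperm. It made up most of the sum in each of these libraries except the LCM-titled one, where ARA12 was larger. PMEI6 went the other way, at 36.3, 9.63 and 17.3 CPM in pure and 5.26 and 4.56 in full endosperm, and ARA12 did not follow the sum, at 720.4, 1188 and 629, and 1972 and 920.2.

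Among the maternal genes with the smallest p-values were 3 that RefSeq describes as uncharacterized proteins, AT1G62060, AT1G62070 and AT1G62080, the first 2 of them neighbours in the annotation. In the LCM-titled library AT1G62070 had 14 maternal and 0 paternal reads, then 4611 and 8 in Col × Ler and 6188 and 1 in Ler × Col, a log2 bias of 9.19 ± 0.34 (SE). AT1G62060 had 1 and 0, 2565 and 2, and 1908 and 4 reads (log2 8.51 ± 0.34). AT1G62080 was not read in the LCM-titled library and had 420 and 1, and 866 and 2 reads in the others. All 3 loci were read almost wholly from the mother in both directions. The levels of AT1G62060 were 2.79, 951 and 673 CPM in pure endosperm, and 1599.6 and 673 in full endosperm.

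Pectin, membrane traffic and lipid-binding functions followed. AT1G23200, of the pectin methylesterase and inhibitor family that changes the charge of wall pectin, had 8 maternal and 0 paternal reads, 2272 and 3, and 2455 and 6 (log2 8.01 ± 0.32, adjusted p 1.46e-47). EXO70H8, a subunit of the exocyst that tethers secretory vesicles at the plasma membrane, had 7 and 0, 830 and 5, and 574 and 0. The lipid transfer protein LTP4 had 3 and 0, 512 and 5, and 377 and 1, and its neighbour LTP3 had 1 and 0, 64 and 1, and 91 and 0. These lipid transfer genes resemble each other, and reads could have been shared between them. MLP28, a major-latex-like protein, had 1 and 0, 661 and 11, and 487 and 2. In each of these genes the maternal share exceeded 97% in both of the deeper libraries.

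Enzymes made up most of the other leading maternal genes. MES4, a member of the methyl esterase family, had 6 maternal and 0 paternal reads, 1401 and 31, and 1617 and 74, a mean share of 96.7% ± 1.56 (SD, n = 2 libraries with at least 10 reads). AT1G12010, a 2-oxoglutarate and iron-dependent oxygenase, was absent from the LCM-titled library and had 1148 and 3, and 306 and 2 in the others. AT2G32150, a haloacid dehalogenase-like hydrolase, had 8 and 1, 1028 and 5, and 1328 and 27. AT4G12290, a copper amine oxidase, had 10 and 0, 813 and 5, and 583 and 57, with a lower maternal share in Ler × Col than in the Col × Ler libraries. The thiol reductase GILT showed the same direction of difference, at 10 and 0, 1516 and 19, and 359 and 36. Leaving out the Ler × Col library ended the calls of LTP4 and AT1G59930, whose adjusted p became 1. With DESeq2 the call of AT1G12010 was lost (adjusted p 0.203).

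**Figure D2:**
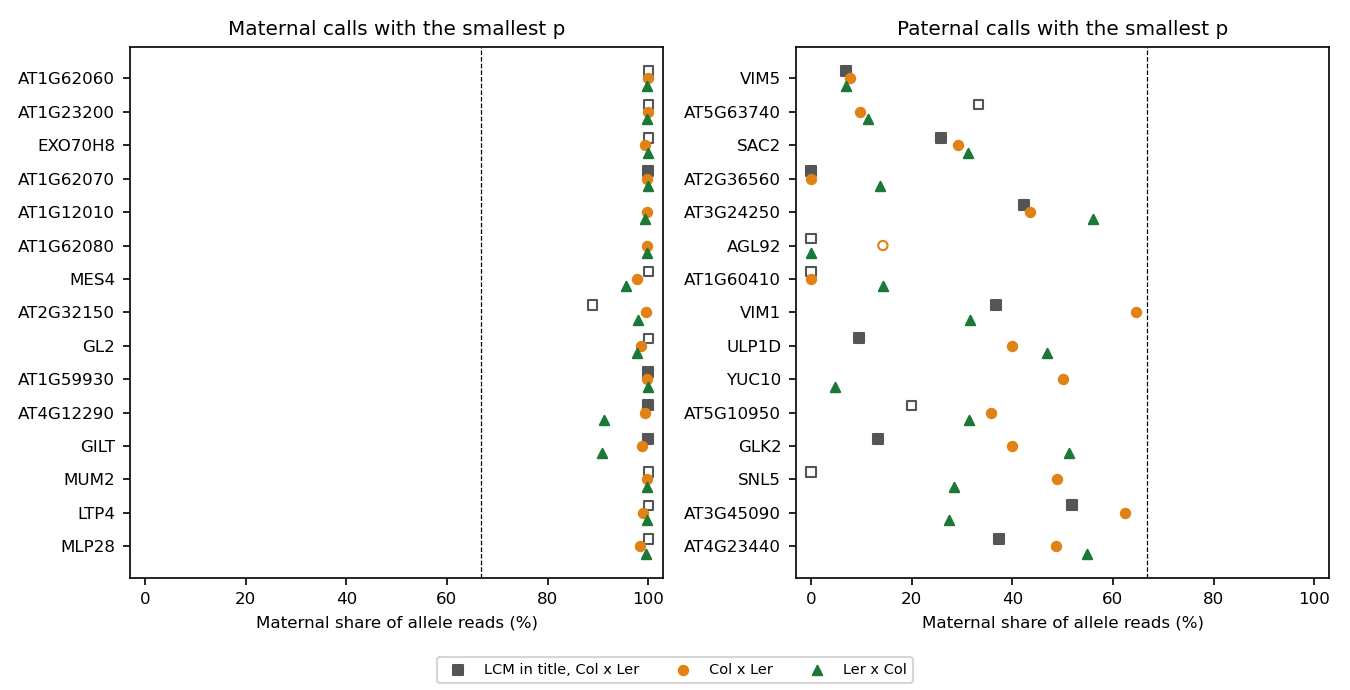
Maternal share of allele reads (x axis, %) of the 15 maternal (left) and 15 paternal (right) calls with the smallest p, each library as a marker. Filled markers have at least 10 reads and open markers 1 to 9, and the dashed line is 66.7%. Maternal genes sit close to 100% in each library, whereas the shares of paternal genes spread from 0 to near the line.

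Proanthocyanidin genes, which make the brown tannin of the seed coat, were called maternal in 7 of the 12 flavonoid genes tested (58.3%, beside 4.15% of all genes), with none called paternal and a median log2 bias of 4.67. The bHLH regulator TT8 had 7 maternal and 0 paternal reads, 431 and 0, and 192 and 1. Its share was 99.7% ± 0.37 (SD, n = 2). Of the enzymes, dihydroflavonol reductase (TT3) had 7 and 2, 223 and 3, and 77 and 1 reads (log2 4.78 ± 0.50). Anthocyanidin reductase (BAN) had 5 and 0, 150 and 1, and 26 and 0. Leucoanthocyanidin dioxygenase (LDOX) had 6 and 0, 157 and 4, and 11 and 0. The laccase TT10, which oxidizes the tannin, was the most abundant of them, with 157 and 5, 7815 and 18, and 4203 and 25. Chalcone synthase (TT4) and the glutathione transferase TT19 were also called. Flavanone 3-hydroxylase (TT6) was not, at 8 and 5, 104 and 47, and 86 and 29 (log2 0.31, adjusted p 0.95).

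Mucilage genes of the seed coat epidermis gave 4 maternal calls of 11 tested (36.4%, beside 4.15% of all genes). GL2, an HD-ZIP IV transcription factor of trichomes and of mucilage, had 8 maternal and 0 paternal reads, 1137 and 17, and 598 and 14 (98.1% ± 0.58, SD, n = 2; log2 4.73 ± 0.29). MUM2, a beta-galactosidase that trims mucilage pectin, had 7 and 0, 439 and 1, and 389 and 1. The homeobox factor KNAT7 had no read in the LCM-titled library, then 181 and 0, and 122 and 2. GATL5, a galacturonosyltransferase-like protein, was milder, at 10 and 5, 235 and 31, and 374 and 74 (79.5% ± 11.4, SD, n = 3). NARS1, a NAC factor of seed coat development, was not called and depended on the direction of the cross, at 185 and 30, 956 and 122, and 378 and 458. The list's median log2 bias was 0.43.

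Cuticle and wall genes were mixed, and their shares of calls stand beside 4.15% maternal among all genes tested. Of 9 cuticle, wax and suberin genes tested, 4 were maternal (44.4%): the wax exporter ABCG12 (6 and 0, 241 and 0, 75 and 2), the acyl-CoA synthetase LACS1 (7 and 0, 114 and 15, 148 and 6), the cutin hydroxylase CYP86A2 (5 and 0, 83 and 1, 28 and 0) and the wax elongase CER6 (6 and 0, 109 and 20, 84 and 9). The other 5 were not called, 4 of them on the paternal side: CYP86B1 (log2 -0.99, adjusted p 0.225), LACS2 (-0.81), KCS20 (-0.70) and CER10 (-0.21), and ABCG11 on the maternal side (0.45). The list's median log2 bias was 0.45. In embryo, where both parents give equal doses, the maternal shares of LACS1 and CER6 were 46.6% ± 24.2 and 44.8% ± 2.69 (SD, n = 3). Of 9 phenylpropanoid genes, MYB4, a repressor of this pathway, and cinnamate 4-hydroxylase (C4H) were called maternal (22.2%). MYB4 had no read in the LCM-titled library, then 175 and 7, and 82 and 0. C4H had 8 and 1, 126 and 37, and 70 and 15 (adjusted p 0.0361), a call that 5 alternatives lost, DESeq2 among them. Of 10 cellulose genes, CESA10 (1 and 0, 375 and 19, 390 and 4), the secondary-wall subunit CESA8 (1 and 0, 19 and 0, 42 and 2) and the chitinase-like POM1 (76 and 39, 732 and 325, 1004 and 199) were maternal. POM1 was near the dose share in both Col × Ler libraries, at 66.1% and 69.3%, and lost its call without either deeper pure library (adjusted p 0.182 and 0.383). The primary-wall subunits CESA3 and CESA6 were not called, with log2 biases of 0.24 and 0.11.

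The 7 seed coat markers detected are members of these lists as well. TT10, TT8, BAN, GL2 and MUM2 were called maternal, and ARA12 (log2 1.12, adjusted p 0.14) and PMEI6 (log2 0.27, adjusted p 1) were not. Over these 7 markers, 81.7%, 96.9% and 94.6% of the summed reads in the 3 pure libraries were maternal, against 99.1% and 98.1% in full endosperm. The lower share of the LCM-titled library came mostly from ARA12, with 190 maternal and 68 paternal reads there. PMEI6 had 2 and 11, and TT10 had 157 and 5. TT8, BAN, GL2 and MUM2 had no paternal read there, each among fewer than 10 reads. Levels of TT8 were 19.5, 159.6 and 67.9 CPM in pure endosperm and 387 and 327 in full endosperm; those of LACS1 were 19.5, 47.8 and 54.2, and 347 and 537. In these bulk libraries, fewer cells of a type and less RNA per cell cannot be told apart.

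**Figure D3:**
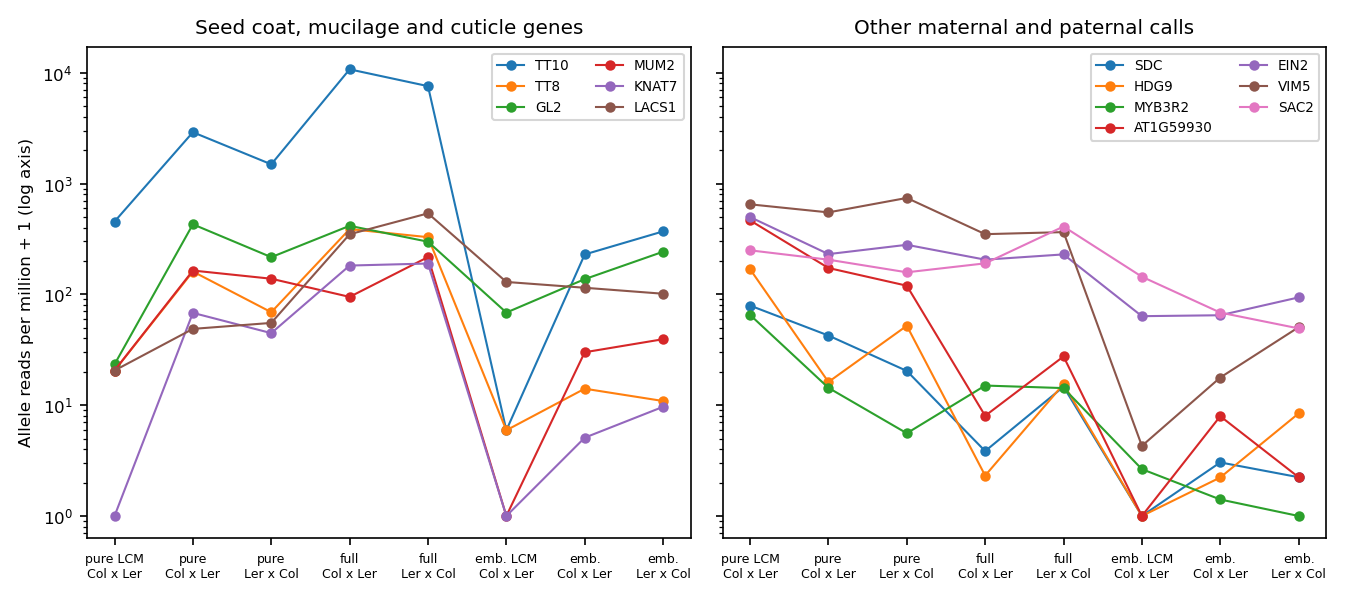
Levels of named genes by library, in CPM of allele reads plus 1 (log axis), in pure endosperm, full endosperm and embryo (emb.). On the left, the 6 genes plotted were lower in the LCM-titled pure library than in the other pure libraries. On the right, SDC, MYB3R2, HDG9, AT1G59930 and EIN2 were highest in the LCM-titled pure library, and VIM5 was higher in each pure library than in full endosperm or embryo.

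Families of wall, surface and specialised-metabolism enzymes also held maternal calls, to be read beside 4.15% maternal and 0.628% paternal of all genes tested. In the smaller families such shares rest on a few calls. Pectin-modifying enzymes gave 5 maternal and 2 paternal calls among 41 tested, and cytochromes P450 gave 5 and 0 among 41 (12.2% maternal in each). Of the P450 genes, CYP86C1, of a fatty acid hydroxylase family, had 8 maternal reads, 51 and 84 with no paternal read, which allows a paternal share of up to 2.10%. Among 66 glycosyltransferases, 5 were maternal (7.58%), among them UGT73C2, at 1 and 0, 276 and 2, and 152 and 1. Glycosyl hydrolases gave 6 maternal and 1 paternal call among 70 (8.57% and 1.43%). BGAL4, a beta-galactosidase, had no paternal read among 77 reads, which allows up to 3.90%. Of 15 peroxidases 2 were maternal (13.3%), AT4G37520 at no read, 258 and 4, and 331 and 0, and RCI3. Acyltransferases of any type gave 3 of 33 (9.09%). BIA1 had 2 maternal reads, 149 and 91 with no paternal one. AT4G15390, which is next to the maternally called CYP705A4 in the annotation, had 48 and 0, 1209 and 9, and 123 and 27.

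Transporters and proteases were called at shares near those of all genes (4.15% maternal, 0.628% paternal), and kinases below the maternal share. Among 178 genes named as transporters by RefSeq, 10 were maternal (5.62%) and none paternal. The hexose symporter STP1 had 1 maternal and 0 paternal reads, 67 and 2, and 17 and 1. UMAMIT3, of a family with known amino acid exporters, had 1 and 1, 95 and 4, and 105 and 5. The nitrate transporter NRT1.6 differed between directions, at 160 and 6, 449 and 43, and 238 and 195 (log2 1.02, adjusted p 0.00164). The sucrose exporter SWEET12 was read thinly, at 1 and 1, 19 and 3, and 11 and 0, and 5 alternatives lost its call. Proteases gave 9 maternal and 1 paternal call among 151 (5.96% and 0.662%). Of the cysteine proteases, ALP had 12 and 5, 133 and 6, and 106 and 5, and RD21A had no read, 146 and 0, and 21 and 1. Kinases of any class gave 11 maternal calls of 381 (2.89%).

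Among transcription factors, MYB genes gave 6 maternal and 2 paternal calls of 29 tested (20.7% and 6.90%). For all genes tested these shares were 4.15% and 0.628%. MYB77 was maternal in each library at 53 and 8, 588 and 81, and 430 and 83 (86.2% ± 2.12, SD, n = 3). MYB115 was called at 28 and 18, 89 and 32, and 208 and 6, with the LCM-titled library under 66.7%. MADS-box genes gave 3 maternal calls and 1 paternal call of 8. The floral regulators SEP1 and AP3 had no paternal read, among 215 and 33 reads, which allows paternal shares up to 1.40% and 9.09%. AT1G59930, a further MADS-box gene, had 166 and 0, 463 and 1, and 337 and 0 (log2 9.35 ± 0.58). Homeobox genes gave 5 maternal calls and 1 paternal call of 53 (9.43% and 1.89%), and the HD-ZIP IV class within them GL2 and HDG9 of 8. NAC038 (1 and 0, 152 and 34, 185 and 7) and WRKY21 (164 and 38, 1237 and 378, 971 and 163) were the called members of the NAC and WRKY families, of 15 and 11 tested. Their shares of 6.67% and 9.09% each rest on 1 call.

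Genes already described as maternally expressed in endosperm were tested for 4 of 11 members, of which 3 were called maternal. The list comes from the literature, which includes work on such libraries, so its direction is not independent evidence. SDC, a gene repressed by DNA methylation, had 28 maternal and 0 paternal reads, 112 and 0, and 54 and 1 (99.4% ± 1.05, SD, n = 3; log2 6.32 ± 0.79). The HD-ZIP IV gene HDG9 had 57 and 3, 40 and 1, and 141 and 4 (96.6% ± 1.40, n = 3). MYB3R2 had 23, 36 and 13 maternal reads and no paternal one, which allows a paternal share of up to 4.17%. All 3 were near fully maternal in every pure library. DME, which encodes the DNA glycosylase DEMETER, was not called, at 63 and 25, 215 and 81, and 267 and 133 (log2 0.21, adjusted p 0.972). MEA, MPC and AGL36 were listed at 0 in every pure library. FIS2 (1, 5 and 1 reads) and FWA (3, 2 and 1) had maternal reads alone, too few for the test. HDG8, also read too thinly, had reads from both parents, at 3 and 4, 1 and 0, and 0 and 2.

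In level, these genes differed from TT10, TT8, GL2, MUM2 and KNAT7, which were lowest in the LCM-titled library among the pure libraries. They did not differ in this way from every seed coat gene. PMEI6 was also highest in the LCM-titled library, at 36.3, 9.63 and 17.3 CPM in pure and 5.26 and 4.56 in full endosperm. TT19, called maternal, was highest there among the pure libraries too. BAN and LDOX were higher there than in the Ler × Col pure library. SDC stood at 78.2, 41.5 and 19.4 CPM in pure endosperm and 2.85 and 13.7 in full endosperm. HDG9 stood at 167.5, 15.2 and 51.0, and 1.32 and 14.5. MYB3R2 stood at 64.2, 13.3 and 4.58, and 14.03 and 13.3. AT1G59930 stood at 463.5, 171.8 and 118.6, and 7.01 and 26.5. In SDC, HDG9, MYB3R2 and AT1G59930 the LCM-titled library was highest, from 23 reads for MYB3R2. In the other pure libraries MYB3R2 was not above full endosperm of the same cross. Leaving out the Ler × Col library ended the calls of HDG9 and MYB3R2 (adjusted p 0.201 and 1), and not that of SDC.

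The paternal side was led by VIM5, a RING-finger protein of the VIM family that binds methylated DNA. In the LCM-titled library VIM5 had 16 maternal and 216 paternal reads, then 114 and 1365 in Col × Ler, and 145 and 1957 in Ler × Col. The maternal share was 7.17% ± 0.47 (SD, n = 3), and the log2 bias was -4.67 ± 0.20 (adjusted p 3.11e-44). The 3 libraries were within 1 percentage point of each other. Its relative VIM1, which maintains CG methylation, was milder and less even, at 14 and 24, 131 and 72, and 75 and 163 (44.3% ± 17.7, n = 3).

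Of 14 literature paternal genes, 7 could be tested, and 5 were called paternal and 1 maternal, with a median log2 bias of -2.33. SAC2, a phosphoinositide phosphatase, had 23 maternal and 66 paternal reads, 161 and 391, and 139 and 307 (28.7% ± 2.69, SD, n = 3; log2 -2.33 ± 0.22). The type I MADS-box gene AGL92 had 0 and 8, 1 and 6, and 0 and 12. YUC10, a flavin monooxygenase of auxin synthesis, was not read in the LCM-titled library and had 10 and 10, and 2 and 40. The DNA demethylase ROS1 had 16 and 47, 161 and 225, and 267 and 137. AGL92 and YUC10 lost their call with DESeq2 and without the Ler × Col library, and ROS1 with DESeq2 and without the unmarked Col × Ler library.

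Other members of the literature paternal list did not follow it. SUVH8, of a histone methyltransferase family, was called maternal from 8 and 0, 9 and 0, and 25 and 10 reads (adjusted p 0.0203), and 5 alternatives lost that call. The HD-ZIP IV gene HDG3 was not called (log2 -2.18, adjusted p 0.586). It was mostly maternal in the LCM-titled library, at 125 and 45, and mostly paternal in the others, at 42 and 122, and 21 and 116. The absence of a call depends on the fit: HDG3 was called paternal under 6 alternatives, among them the fit without the robust option, endosperm libraries alone, and the fit without the LCM-titled library (log2 -2.99, adjusted p 2.94e-11), and its adjusted p over the alternatives ran from 2.94e-11 to 0.968. PHE1, PKR2 and TAR1 were listed at 0 in every pure library. SUVH7, at 1 and 5, 2 and 5, and 1 and 7 reads, was below the minimum of the test.

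Of 19 genes of DNA methylation and demethylation tested, VIM5, VIM1, ROS1 and SUVH9 were paternal (21.1%, beside 0.628% of all genes) and SUVH8 was maternal. The list includes genes placed there because they are known to be paternal, and its median log2 bias was -0.01. SUVH9, a methyl-DNA-binding protein of RNA-directed methylation, had 13 and 18, 105 and 52, and 47 and 117, so that the unmarked Col × Ler library was at the dose share and the others below it. The methyltransferase genes CMT2 (129 and 41, 689 and 237, 447 and 324) and DRM3 (8 and 5, 71 and 32, 53 and 49) were not called. Nor was any of the 11 components of the RNA-directed DNA methylation pathway, among them AGO4 (24 and 4, 269 and 113, 243 and 163). Among 6 Polycomb and chromatin genes, including CLF and SWN, no gene was called. With 4.15% of all genes called maternal and 0.628% paternal, the absence of calls in lists this small shows little.

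Further paternal genes had roles in chromatin, protein turnover and gene control. AT2G36560, an AT-hook DNA-binding protein, had 0 and 24, 0 and 38, and 3 and 19. The F-box gene AT1G60410 had 0 and 2, 0 and 11, and 2 and 12, and the RING/U-box gene AT5G63740 had 1 and 2, 3 and 28, and 7 and 55. In these 3 genes nearly all reads were paternal. ULP1D, which removes the small modifier SUMO, had 2 and 19, 44 and 66, and 60 and 68. SNL5, a SIN3-like co-repressor, had 0 and 9, 42 and 44, and 17 and 43. AT5G10950, of the Tudor and PWWP domain family, had 1 and 4, 15 and 27, and 17 and 37. GLK2, a regulator of chloroplast development, had 2 and 13, 92 and 138, and 105 and 100. In ULP1D, SNL5 and GLK2 the LCM-titled library was the most paternal of the 3.

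Other paternal calls came close to an even share. The glycine-rich protein AT3G24250 had 66 and 90, 1616 and 2099, and 845 and 661 (47.3% ± 7.65, SD, n = 3). The TIR-NBS resistance protein AT4G23440 had 19 and 32, 220 and 232, and 320 and 263. AT5G55660, a chromatin-associated DEK-domain protein, had 63 and 87, 11524 and 8277, and 11322 and 8068. The lipid transfer family gene AT1G62500 (0 and 1, 302 and 253, 113 and 125) was of this kind too. In the embryo, the mean maternal shares of AT3G24250, AT4G23440 and AT5G55660 were 51.1%, 48.4% and 50.1%. Summed embryo markers, mostly SCR and GSO2, stood at 137 to 322 CPM in pure endosperm against at least 1148 in embryo. The part of embryo RNA in these calls was not tested.

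Some paternal calls followed the ecotype more than the parent. AT1G70600, a ribosomal L18e/L15 family protein, had 0 and 149, 12 and 1959, and 1639 and 10, so that its Ler allele held nearly all reads in either direction. AT3G11160 leaned to Col alike, at 64 and 19, 1111 and 232, and 291 and 1173. AT1G65760 had 0 and 19, 0 and 44, and 13 and 3. Such genes passed on the remainder after the ecotype term and are uncertain. For AT1G70600, 4 alternatives lost the call.

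Endosperm marker and storage genes were mostly not called. EPR1, with 2512 and 1697, 144235 and 88514, and 259958 and 112142 reads, had a log2 bias of -0.12 ± 0.12 and a maternal share of 63.8% ± 5.34 (SD, n = 3). Against embryo, where it was 66.5% ± 4.01 maternal (SD, n = 2), EPR1 was less maternal relative to dose (difference -1.14 ± 0.21, adjusted p 0.00107). The shares themselves were close, and the doses they are set against differ, at 2:1 and 1:1. EPR1 stood at 4.94, 1220 and 8781 CPM in the embryo libraries, and the part of endosperm RNA in them was not tested. The endosperm regulator ZOU had 150 and 50, 242 and 64, and 188 and 122. The subtilase ALE1, which acts on the embryo surface, had 1075 and 531, 1844 and 895, and 2336 and 1245. None of the 3 was called. SWEET12 was the 1 maternal call among 6 genes of the endosperm list, and GSO2, a receptor kinase of embryo cuticle formation, among 10 of the embryo list (8 and 2, 303 and 184, 267 and 45; adjusted p 0.0391). The GSO2 call was lost in 10 of 12 alternatives, without any 1 of the pure libraries among them. No storage reserve gene of 7 was called, among them the oleosin OLEO3 (1620 and 636, 10378 and 5721, 13047 and 6961). Of 28 photosynthesis genes none was called, and of 136 ribosomal protein genes the 1 call was AT1G70600. Of all genes tested, 4.15% were called maternal and 0.628% paternal.

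**Figure D4:**
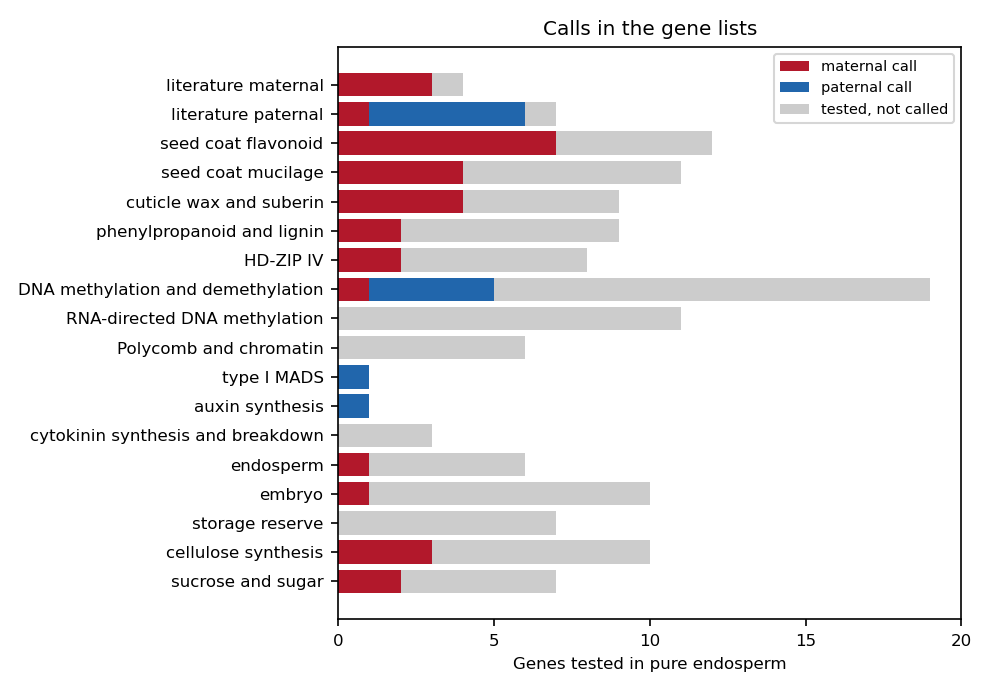
Number of genes tested in pure endosperm (x axis) in each gene list, divided into maternal calls, paternal calls and genes tested but not called. The flavonoid list holds 7 maternal calls and the mucilage and cuticle lists 4 each, and 4 paternal calls fall in the DNA methylation list, whereas the lists of RNA-directed methylation, Polycomb, cytokinin and storage genes have none.

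Maternal calls in pure endosperm were almost always maternal in full endosperm as well. Of 9174 genes tested there, 1743 were maternal (19.0%) and 45 paternal (0.491%), and the median log2 bias was 0.48. With 1 full library left out, 424 to 484 were maternal and 11 to 28 paternal. Tested against the median ratio of all genes there, 821 genes were maternal and 246 paternal. Of the 300 maternal calls from pure endosperm that could be tested, 291 were maternal in full endosperm. Of 43 paternal calls, 18 were paternal there, and 35 had a negative log2 bias. VIM5 kept 8.50% and 11.3% maternal reads in full endosperm (135 and 1453, 198 and 1556). SNL5 stood at 115 and 58, and 149 and 84, near the dose share.

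The difference in bias between preparations was tested directly. Of 7104 genes, 4 were more maternal in pure than in full endosperm (0.0563%) and 132 were less maternal (1.86%), around a median difference of -0.36. With each preparation set to its own median ratio, 5 genes were more and 35 less maternal. MYB115 was the most significant of the 4, with a log2 difference of 2.73 ± 0.61 (adjusted p 0.00419); in full endosperm it had 10 and 68 reads in Col × Ler and 458 and 21 in Ler × Col. The others were AT2G32150 (1.72 ± 0.42), AT4G12290 (1.37 ± 0.37) and TBL38 (3.54 ± 1.03), of the family that acetylates wall polysaccharides. With DESeq2, or with a minimum of 30 reads, no gene was more maternal, and 72 or 54 were less. Leaving out each pure library in turn gave 5, 2 and 8 more maternal genes and 81, 87 and 94 less maternal ones. These kept 76, 68 and 60 of the 132 less maternal genes. Without the unmarked Col × Ler pure library, 95 of the 132 could still be tested.

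Among genes less maternal in pure endosperm were 20 of the maternal calls and 7 of the paternal calls. Of these, the acyltransferase AT4G13840 had the smallest p. It had 42 and 0, 1559 and 40, and 199 and 67 reads in pure endosperm and 29975 and 104, and 3907 and 193 in full endosperm (difference -2.78 ± 0.31, adjusted p 3.91e-11). The dormancy and auxin associated gene AT2G33830 differed by -2.87 ± 0.46, the polyubiquitin gene UBQ3 by -1.57 ± 0.26, the SRA-domain gene AT5G47150 by -3.24 ± 0.58 and LACS1 by -2.58 ± 0.54. Each was maternal in both preparations and more so in full endosperm. AT5G63740 was paternal in pure endosperm and near the dose share in full endosperm, at 13 and 6, and 9 and 4 reads (difference -4.01 ± 0.66). Its full-endosperm shares rest on 19 and 13 reads. Among genes not called in pure endosperm, the cuticle genes CYP86B1 (-5.05 ± 0.63) and ABCG11 (-2.01 ± 0.28) were also less maternal there than in full endosperm. SAC2 (-1.24, adjusted p 0.0153) and SNL5 (-1.78, adjusted p 0.0221) were also less maternal in pure endosperm.

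**Figure D5:**
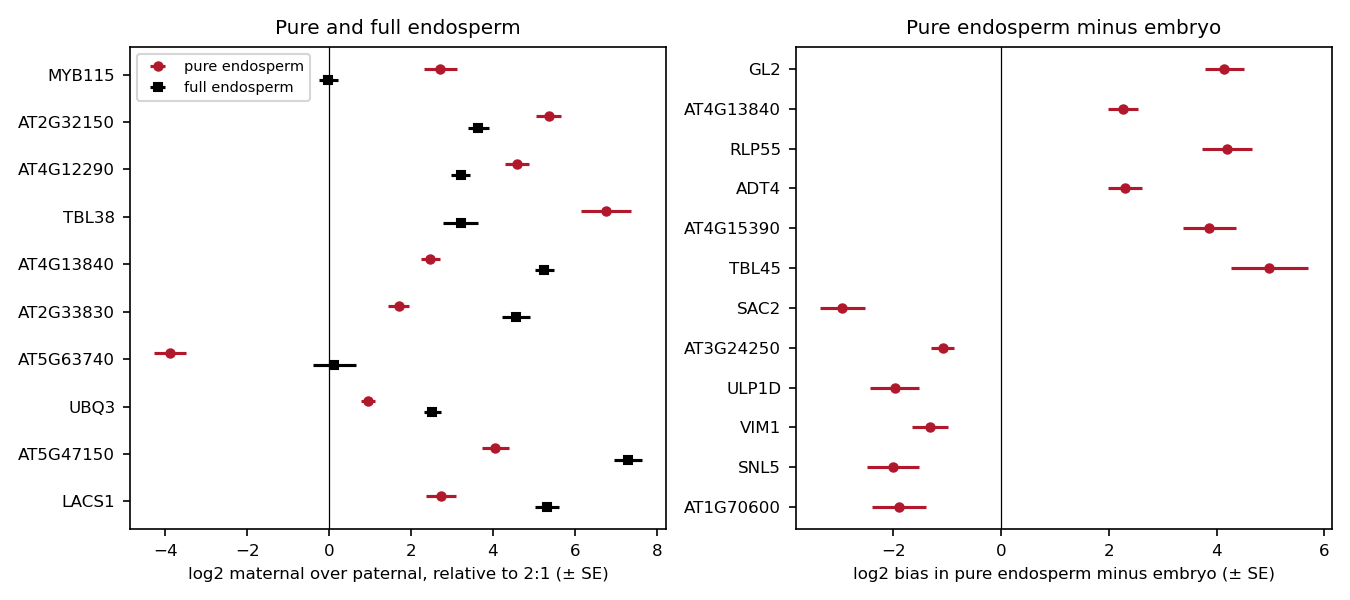
Left, log2 maternal over paternal reads relative to 2:1 (± SE) in pure and full endosperm, for genes whose bias differed between them. Right, log2 bias in pure endosperm minus that in embryo, each relative to its own genome dose (± SE). MYB115, AT2G32150, AT4G12290 and TBL38 are more maternal in pure endosperm, and the other 6 genes on the left less; on the right, 6 genes lie above 0 and 6 below.

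The embryo, with equal parental doses, was compared in the same way, each tissue relative to its own dose ratio. Of 5115 genes tested, 43 were more maternal in pure endosperm than in embryo (0.841%) and 14 less (0.274%). All 43 were maternal calls, out of 154 maternal calls that could be tested, and 6 of the 14 were paternal calls, out of 33. The calls and the difference use the same pure libraries, so these overlaps are not independent evidence. GL2 led, with a difference of 4.14 ± 0.36 (adjusted p 5.60e-10); in embryo it had 25 and 16, 190 and 143, and 121 and 74 reads, 60.0% ± 2.63 maternal (SD, n = 3). RLP55, a receptor-like protein, differed by 4.19 ± 0.46, and TBL45 by 4.98 ± 0.71. ADT4, an arogenate dehydratase of phenylalanine synthesis, differed by 2.29 ± 0.32. The acyltransferases AT4G13840 (2.27 ± 0.28) and AT4G15390 (3.87 ± 0.49) completed the leading 6. In these 6 genes the mean embryo share was between 44.4% and 73.3%. Without the unmarked Col × Ler pure library, 3 genes were more maternal and 5 less, and without the unmarked Col × Ler embryo library 26 and 7.

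Of the other leading maternal genes, MUM2 was 82.6% ± 2.73 maternal in embryo (SD, n = 2). It was more maternal in pure endosperm, by 5.51 ± 0.89 (adjusted p 0.000165). Some others were almost wholly maternal in the embryo libraries too. AT1G62060 was 99.7% and AT1G62070 99.8% maternal in the 2 embryo libraries with at least 10 reads, and TT10 was 99.5%. Their differences from pure endosperm were -1.26, 0.26 and -2.71 on the log2 scale with adjusted p of 1. The LCM-titled embryo library had 3 maternal reads of TT10, against 558 maternal and 0 paternal, and 295 and 3, in the others. On the paternal side, all 33 testable paternal calls had a negative difference. They had been selected for a negative bias in the same pure libraries, so this direction was largely fixed in advance and is no evidence. SAC2 was 61.8% ± 8.42 maternal in embryo (n = 3; difference -2.95 ± 0.41). AT3G24250 differed by -1.08 ± 0.21, ULP1D by -1.97 ± 0.46, VIM1 by -1.32 ± 0.33, SNL5 by -2.01 ± 0.49 and AT1G70600 by -1.90 ± 0.50. VIM5 was 14.7% ± 10.2 maternal in the 2 embryo libraries where it could be measured (difference -1.90, adjusted p 0.190). The 1 Ler × Col embryo library bears the separation of parent from ecotype there.

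Maternal calls were sometimes neighbours. Of the 304, 17 lay directly next to another maternal call in the order of the TAIR10.1 annotation, and no paternal calls were neighbours. Several of these neighbours belong to 1 family, such as LTP3 and LTP4, the esterases MES4 and MES19, and AT1G62060 and AT1G62070, and whether they share reads was not tested. KNAT7 was next to NRS/ER, and CYP705A4 next to AT4G15390, of unlike families.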

How the data were processed

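The deposited tables hold, per gene, counts of reads that matched the Col or the Ler sequence better, per the file headers and the note beside them; reads had been aligned to cDNA models with Bowtie, per the submitters' processing notes, whose version, annotation release and use of strand were not stated. Counting against cDNA models can split reads between similar genes. Names and products came from RefSeq's TAIR10.1 table, which matched 27688 of 28523 gene IDs.

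Maternal and paternal counts were taken from the cross direction in the labels. edgeR 4.0.16 (R 4.3.3, robust quasi-likelihood) fitted the counts of all 11 libraries together, with library terms, an ecotype term for the allele in each tissue, a parent term per group, and an offset of 2:1 in endosperm and 1:1 in embryo. Genes needed at least 10 allele reads per cross direction, and p-values were adjusted by Benjamini and Hochberg over all genes tested. Shares are given as mean ± SD over libraries with at least 10 reads of the gene. Upper limits of a share rest on 3 counts over the total and cover counting error only, since reads carry no molecular identifiers. Depth ranged from 358142 to 4828301 allele reads in the wild-type libraries, which limits the LCM-titled pure library most. The 3 pure libraries leave 1 residual degree of freedom of their own, and the groups share 1 estimate of the spread. No pure library was a copy of another: between pairs, chi-square divided by its degrees of freedom was 21.7 to 65.3. The fit was tested on simulated data.

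The genes named were, per direction, the 15 with the smallest p whose measured libraries all leaned the called way, at most 4 called genes from a list and 3 from a family, the measured literature genes, and, per direction of each difference, the 6 smallest p among genes also called in pure endosperm. Genes outside this rule that are named as uncalled, ecotype-led or untested examples were chosen after their values were seen. The members and lists were chosen with earlier results of these data known. Alternatives were DESeq2 1.42.0, minimums of 1 and 30 reads, the median ratio as the expected ratio, fits without the robust option or with fewer libraries, a binomial test and leaving out each library. No sequences are printed. Some results are not reported here.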

Additional observations from a re-analysis of the deposited data

Results flagged for a closer look

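The 22 differences below passed edgeR's test of the difference in parental bias itself between pure endosperm and another tissue or preparation, on the log2 scale, and are given as values. Against full endosperm, MYB115 differed by 2.73, AT2G32150 by 1.72, AT4G12290 by 1.37 and TBL38 by 3.54, all more maternal in pure endosperm. AT4G13840 differed by -2.78, AT2G33830 by -2.87, AT5G63740 by -4.01, UBQ3 by -1.57, AT5G47150 by -3.24 and LACS1 by -2.58, all less maternal in pure endosperm.

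Against embryo, with each tissue relative to its own genome dose, GL2 differed by 4.14, AT4G13840 by 2.27, RLP55 by 4.19, ADT4 by 2.29, AT4G15390 by 3.87 and TBL45 by 4.98. On the other side, SAC2 differed by -2.95, AT3G24250 by -1.08, ULP1D by -1.97, VIM1 by -1.32, SNL5 by -2.01 and AT1G70600 by -1.90. AT4G13840 was thus less maternal in pure than in full endosperm and more maternal in pure endosperm than in embryo.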

How the results depend on the processing

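For maternal and paternal calls in pure endosperm, a minimum of 30 reads gave 185 and 25, DESeq2 148 and 27, and a strong bias (at least 85% or at most 50% maternal in each measured library) 199 and 19. Leaving out 1 library gave 48 to 326 maternal and 15 to 48 paternal calls; the lowest counts, without the unmarked Col × Ler library, come from 3666 tested genes, and 45 of the 80 maternal calls still tested were kept. DESeq2 kept 146 of the 304. The fit without the Ler × Col library kept 149 of the 304 and 20 of the 46 paternal calls. In full endosperm DESeq2 gave 1025 and 26, the median ratio 821 and 246, and leaving out a library 424 to 484 and 11 to 28. For pure minus full endosperm, a minimum of 30 reads gave 0 more and 54 less maternal genes, DESeq2 0 and 72, the median ratio 35 less, and leaving out a library 2 to 8 and 73 to 96. For pure endosperm minus embryo, a minimum of 30 reads gave 24 and 9, DESeq2 24 more, and leaving out a library 3 to 62 and 5 to 30; the fit without the Ler × Col embryo library could not be made, as parent and ecotype could not then be separated. Of 123 named genes, 121 were called. Of these, 58 kept the call in every alternative in which they could be tested, and 63 lost it in at least 1. These counts cover at most 12 alternatives per gene and leave out the binomial test. VIM1, LDOX and MYB115 are among the 58 but were not called by the binomial test in both directions. With 1 library left out, the log2 bias of AT5G49900 ran from -0.20, a reversal without pure replicate 3 (Ler × Col), to 2.35. The cause was not tested in any of these cases. No paired analysis was possible because the replicate numbers follow accession order and mark no shared plants.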

Other observations

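Genes of jasmonate synthesis were also maternal, in a list chosen after its values were seen, so the count supports nothing. Of 6 jasmonate genes tested, 5 were called maternal. JMT, which makes methyl jasmonate, had 13 maternal and 0 paternal reads, 469 and 5, and 170 and 5 in the same library order (98.7% ± 1.44, SD, n = 3). The reductase OPR3 had 6 and 0, 27 and 3, and 40 and 3, and the acyl-CoA oxidase ACX1 had 50 and 7, 235 and 39, and 82 and 29. The ACC synthase ACS7, of ethylene synthesis, was called maternal with no read, 23 and 0, and 16 and 0. Also called maternal, EIN2, a central component of ethylene signalling, had 143 and 35, 538 and 82, and 732 and 60.

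Although most maternal calls were lower in the LCM-titled library than in the other Col × Ler library, 48 were higher there, 33 of them with at least 10 reads, and 27 exceeded both full endosperm libraries as well. AT4G18320, an uncharacterized protein, stood at 369, 19.6 and 6.34 CPM in the pure libraries and 63.6 and 29.2 in full endosperm. AT1G61090 stood at 123, 5.56 and 8.10, and 50.2 and 82.4, and the SKP1-like gene SK8 at 64.2, 11.1 and 5.28, and 48.9 and 63.0. These genes were chosen after their values were seen.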
